A study of Mus musculus with 12 samples.

Results

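The genes described here are 10 enzymes of antioxidant defence, taken by symbol from the 26264 genes of the count tables. The 6 genes Hmox1, Nqo1, Gclc, Gclm, Txnrd1 and Srxn1 are standard targets of the transcription factor NRF2, and Sod1, Sod2, Cat and Gpx3 remove superoxide or peroxides directly. All 10 passed the filter on low counts and were tested. They were measured by RNA-seq in glomeruli, the filtering units of the kidney, of 2 substrains of the albino inbred mouse BALB/c, called AJcl (BALB/cAJcl) and ByJcl (BALB/cByJcl). The animals were 8-week-old males, either untreated (baseline) or killed on Day 5 after 1 intravenous dose of adriamycin (ADR, doxorubicin) at 10 mg/kg, with 3 libraries in each of the 4 groups. Each library came from glomeruli trapped with magnetic beads perfused through the animal, so it still held some tubule and blood cell RNA, and in such bulk samples fewer cells of a type and less RNA per cell cannot be told apart. AJcl Day 5 replicate 1, which the study set aside for low glomerular purity, was left out of the tests and of the means, and its values are given where they matter. Baseline counts and Day 5 counts were deposited as 2 tables, and any difference in how these were made cannot be told apart from ADR.

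NRF2 (gene Nfe2l2) is held in the cytoplasm by KEAP1, which marks it for destruction. Oxidants and electrophiles modify KEAP1, NRF2 then accumulates, pairs with a small MAF protein and binds antioxidant response elements in its target genes. ADR is reduced inside cells to a radical that passes its electron to oxygen, so its toxicity is commonly linked to superoxide and hydrogen peroxide, and the podocyte, the cell that covers the glomerular capillary, is the cell best known to be damaged by it.

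The promoters were searched for the core of the antioxidant response element, TGACNNNGC, and for the AP-1 site TGACTCA, a related motif, on both strands. In the 250 bases before the start of the canonical transcript the core was present in 3 of the 10 genes, against 9.69% of 21770 protein-coding promoters, and the AP-1 site was present in Srxn1 alone, against 4.02%. In 1000 bases the counts were 4 of 10 against 28.2% of 21765 for the core and 2 of 10 against 15.2% for the AP-1 site. No match of 1 motif overlapped a match of the other. Only these letters were searched, so elements with other letters were not counted. The last stretch below, of Srxn1, reads TGAGTCAgc, which differs from the core only by TGAG in place of TGAC. The stretches below are those of the 250-base window, from the GRCm39 assembly on the plus strand, which is the strand of each of these genes, and are shown because they include the genes that changed after ADR, Txnrd1 and Srxn1. Capitals mark the match, which lies on the minus strand in each case and so reads as the reverse complement of the motif.
Txnrd1, chr10:82694918-82694986: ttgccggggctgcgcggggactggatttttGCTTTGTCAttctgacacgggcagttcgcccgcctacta
Gclm, chr3:122039042-122039110: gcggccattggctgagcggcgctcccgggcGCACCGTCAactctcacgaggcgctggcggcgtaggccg
Sod1, chr16:90017283-90017351: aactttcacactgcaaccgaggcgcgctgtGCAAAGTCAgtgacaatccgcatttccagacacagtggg
Srxn1, chr2:151947312-151947378: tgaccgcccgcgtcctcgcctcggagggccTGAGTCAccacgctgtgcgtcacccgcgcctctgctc
Srxn1, chr2:151947369-151947435: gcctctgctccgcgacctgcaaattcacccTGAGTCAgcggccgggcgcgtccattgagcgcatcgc

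A match is a description of the letters and not a measurement of binding. The core lay 65 to 57 bases before the start of the canonical Txnrd1 transcript, and the AP-1 matches lay 102 to 96 and 45 to 39 bases before that of Srxn1.

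Libraries held 42198416 to 54687045 counts, and levels are given as CPM, the counts of a gene relative to its library's total after TMM scaling. The podocyte marker Nphs1, which encodes the slit diaphragm protein nephrin, was at 495 CPM or more in every library of the tests. Tubule markers were present in every library. The summed level of 10 proximal tubule markers was 1841, 3949 and 5631 CPM over the AJcl baseline libraries in ascending order, 613 to 3196 CPM in ByJcl at baseline, 2147 and 2819 CPM in AJcl at Day 5 and 605 to 2188 CPM in ByJcl at Day 5. In AJcl Day 5 replicate 1 it was 8600 CPM. The ADR dose was visible in 8 targets of p53, the factor induced by DNA damage, of which 8 rose in ByJcl in edgeR and DESeq2, and in AJcl 6 rose in edgeR, where all 8 had an unadjusted p under 0.05, and 8 in DESeq2. Of the podocyte list of 10 genes 9 fell and 1 rose in ByJcl in edgeR. Over all tested genes edgeR called 5.75% higher and 4.83% lower in ByJcl, and 0.306% higher in AJcl. In AJcl 9 of the 10 podocyte genes lay below 0, with a median log2 fold change of -0.40. There edgeR called 0, with 4 at an unadjusted p under 0.05, against 9.8% of all tested genes, whereas DESeq2 called 3, of which 2 were lower. Over all tested genes DESeq2 called 1.77% in AJcl and 15.8% in ByJcl, in either direction.

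After ADR, 2 of the 10 genes rose in ByJcl and none fell, and in AJcl none passed the test, also in DESeq2, with none at an unadjusted p under 0.05 in edgeR. The 2 genes were Txnrd1 and Srxn1, both of which serve the thiol side of antioxidant defence. The background was 5.75% of 17002 tested genes called higher in ByJcl and 10.6% called in either direction. In AJcl, where 2 Day 5 libraries entered the test, it was 0.306% higher and 0.312% in either direction, and 9.8% of tested genes had an unadjusted p under 0.05. A call here is a gene with a Benjamini-Hochberg adjusted p under 0.05 in edgeR's quasi-likelihood test across all tested genes. DESeq2, 1 of the alternatives run, called 15.8% of the same genes after ADR in ByJcl and 1.77% in AJcl, 0.594% between the substrains at baseline and 3.26% at Day 5, and 0.135% for the difference between the ADR responses.

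Txnrd1 encodes cytosolic thioredoxin reductase, the selenoenzyme that uses NADPH to return thioredoxin to its reduced form. Its level was 75.4, 80.7 and 95.3 CPM in the ByJcl baseline libraries and 143, 203 and 168 CPM in the ByJcl Day 5 libraries. Every Day 5 library lay above every baseline library. The means were 83.8 ± 10.3 (SD, n = 3) and 171 ± 30.2 CPM (SD, n = 3), a 2.04-fold rise (log2 fold change 1.03, SE 0.15, adjusted p = 0.00325 in edgeR). It was called under each of the 23 alternatives run, with log2 fold changes from 0.89 to 1.15.

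In AJcl, Txnrd1 was at 87.6, 88.1 and 98.8 CPM at baseline and at 98.8 and 133 CPM on Day 5. The lowest Day 5 value and the highest baseline value were nearly equal, and AJcl Day 5 replicate 1, at 108 CPM, lay above the baseline libraries. The change did not pass the test (log2 fold change 0.34, SE 0.17, adjusted p = 0.563 in edgeR). At Day 5 all 3 ByJcl libraries lay above all 3 AJcl libraries, with a log2 difference of 0.56 (SE 0.17, adjusted p = 0.206 in edgeR). The call was gained when AJcl Day 5 replicate 3 was left out and replicate 1 was used in its place (log2 difference 0.72, adjusted p = 0.0352), an alternative chosen after seeing the data.

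The difference between the ADR responses, ByJcl minus AJcl, was 0.69 for Txnrd1 on the log2 scale (SE 0.23, unadjusted p = 0.0117, adjusted p = 0.620 in edgeR). No gene of the 17002 was called for this difference in edgeR (0%), where 1363 had an unadjusted p under 0.05, and 23 were called in DESeq2, none of them among the 10 genes. Ordered by mean, the groups were ByJcl Day 5, AJcl Day 5 with 116 ± 24.02 CPM (SD, n = 2), AJcl baseline with 91.5 ± 6.29 CPM (SD, n = 3) and ByJcl baseline. No neighbours in that order were told apart by the test.

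Srxn1 encodes sulfiredoxin, which repairs peroxiredoxins whose active cysteine has been overoxidised. It was at 21.9, 26.2 and 27.5 CPM in ByJcl at baseline and at 36.3, 46.6 and 45.5 CPM on Day 5. The groups did not overlap. The rise was 1.70-fold (log2 fold change 0.76, SE 0.18, adjusted p = 0.0220 in edgeR), from 25.2 ± 2.94 to 42.8 ± 5.64 CPM (SD, n = 3 each). The call depended on single libraries, since the adjusted p became 0.0812 without ByJcl baseline replicate 1, 0.0664 without ByJcl baseline replicate 2, 0.0877 without ByJcl Day 5 replicate 2 and 0.0531 without ByJcl Day 5 replicate 3, with log2 fold changes from 0.67 to 0.79.

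In AJcl, Srxn1 was at 23.6, 21.9 and 32.9 CPM at baseline and at 27.7 and 36.4 CPM on Day 5, so the groups overlapped (log2 fold change 0.29, SE 0.20, adjusted p = 0.714 in edgeR). AJcl Day 5 replicate 1 was at 43.4 CPM, above every baseline library. Neither the Day 5 difference between substrains (0.42, SE 0.20, adjusted p = 0.381) nor the difference between the ADR responses (0.47, SE 0.27, adjusted p = 0.670) passed edgeR's test.

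**Figure D1:**
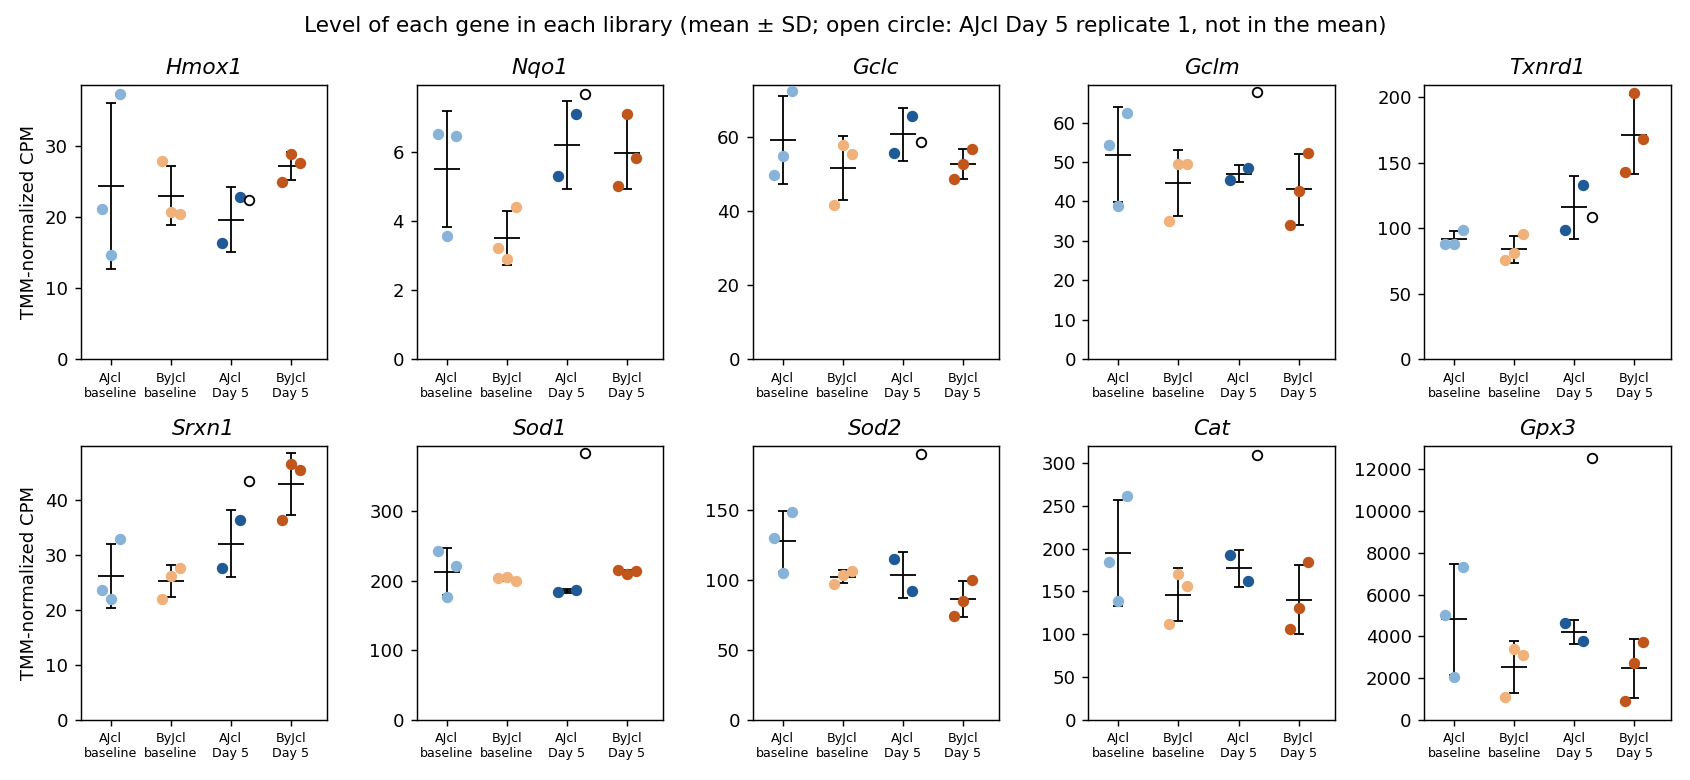
Level of each of the 10 genes in each library, in TMM-normalized CPM on linear axes from 0, with the group mean and SD. Txnrd1 has its 3 highest libraries in ByJcl at Day 5, and the open circle, AJcl Day 5 replicate 1, is the highest library for Nqo1, Gclm, Sod1, Sod2, Cat and Gpx3. It lay above all 6 baseline libraries for 8 of the 10 genes, against 32.8% of tested genes.

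Nqo1 encodes a quinone reductase that reduces quinones by 2 electrons at a time and so avoids the radical intermediate. It was at 3.23, 2.90 and 4.40 CPM in ByJcl at baseline and at 5.02, 7.13 and 5.83 CPM on Day 5. These groups did not overlap either, but edgeR did not call the difference (log2 fold change 0.77, SE 0.27, adjusted p = 0.0951), whereas DESeq2 did (0.79, adjusted p = 0.0412). The size was close to that of Srxn1, with a larger error.

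At baseline Nqo1 was at 6.52, 3.58 and 6.47 CPM in AJcl, where 1 library lay within the ByJcl range and the others above it. In edgeR it was the only one of the 10 with an unadjusted p under 0.05 in that comparison, against 8.34% of all tested genes (log2 difference of ByJcl from AJcl -0.65, SE 0.27, unadjusted p = 0.0349, adjusted p = 0.583). At Day 5 the substrains overlapped, AJcl being at 5.31 and 7.12 CPM (log2 difference -0.05, SE 0.30). The difference between the ADR responses was 0.60 (SE 0.41, adjusted p = 0.710).

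Hmox1 encodes haem oxygenase 1, the inducible enzyme that opens the haem ring and yields biliverdin, iron and carbon monoxide. It was at 21.2, 14.7 and 37.5 CPM in AJcl at baseline, the widest relative spread of any group among the 6 NRF2 targets, and at 16.4 and 22.9 CPM on Day 5. In ByJcl it was at 27.9, 20.7 and 20.5 CPM at baseline and at 25.03, 29.0 and 27.7 CPM on Day 5. Baseline and Day 5 libraries overlapped in both substrains.

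The log2 fold change of Hmox1 after ADR was -0.32 (SE 0.32, adjusted p = 0.818) in AJcl and 0.24 (SE 0.28, adjusted p = 0.637) in ByJcl by edgeR. At Day 5 the 3 ByJcl libraries lay above all 3 AJcl libraries, the highest of which was at 22.9 CPM, but the difference did not pass the test (0.47, SE 0.32, adjusted p = 0.532). The difference between the responses was 0.56 (SE 0.43, adjusted p = 0.739).

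Gclc and Gclm encode the catalytic and the modifier subunit of glutamate-cysteine ligase, which makes the precursor of glutathione. The Gclc mean was 59.2 ± 11.9 CPM in AJcl and 51.7 ± 8.74 CPM in ByJcl at baseline (SD, n = 3 each), and 60.8 ± 7.18 (SD, n = 2) and 52.8 ± 4.08 CPM (SD, n = 3) at Day 5. The changes after ADR were 0.04 (SE 0.18) in AJcl and 0.03 (SE 0.16) in ByJcl on the log2 scale, smaller than their errors.

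The Gclm mean was 51.9 ± 12.1 and 44.7 ± 8.45 CPM at baseline (SD, n = 3 each) and 47.0 ± 2.11 (SD, n = 2) and 43.0 ± 9.11 CPM (SD, n = 3) at Day 5, in AJcl and ByJcl. Its changes after ADR were -0.14 (SE 0.23) and -0.06 (SE 0.20). Neither subunit was called in any of the 5 comparisons, and the baseline and Day 5 libraries of each overlapped in both substrains. The 6 NRF2 targets thus had a median log2 fold change of 0.50 in ByJcl and 0.10 in AJcl after ADR, beside 0.01 and -0.01 over all tested genes.

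**Figure D2:**
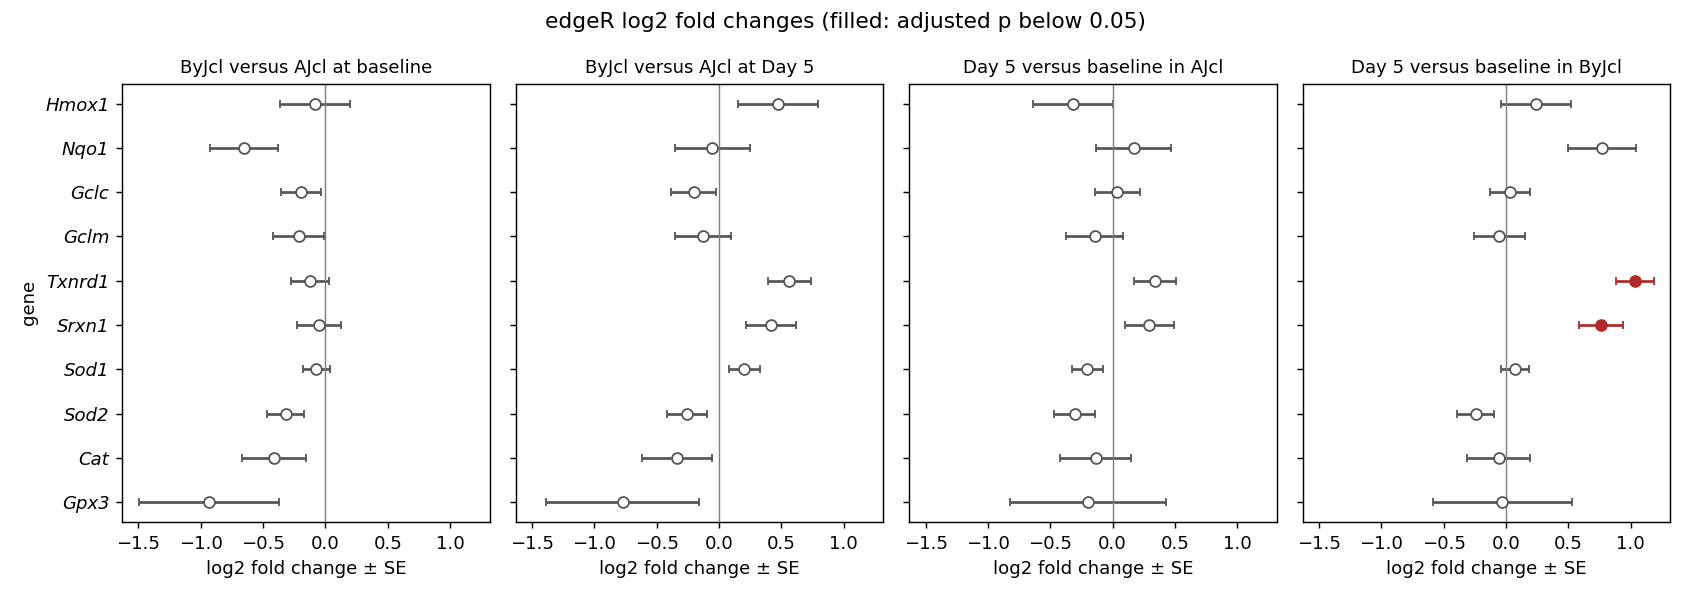
log2 fold change with its SE for the 10 genes in 4 comparisons, fitted by edgeR over 11 libraries. The only filled points, adjusted p under 0.05, are Txnrd1 at 1.03 and Srxn1 at 0.76 for Day 5 against baseline in ByJcl, and all 10 points lie below 0 in the baseline comparison of substrains.

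The 4 direct antioxidant enzymes had no call in any comparison in edgeR or DESeq2. None had an unadjusted p under 0.05 in edgeR over the 11 libraries. In DESeq2 Sod2 had one between the substrains at baseline (unadjusted p = 0.0466, adjusted p = 0.514). With all 12 libraries in edgeR, Sod2, Gpx3 and Cat had one between the substrains at Day 5, with adjusted p of 0.2004, 0.252 and 0.271. After ADR their median log2 fold change was -0.20 in AJcl and -0.05 in ByJcl. The largest of these changes in ByJcl was that of Sod2, mitochondrial manganese superoxide dismutase, at -0.24 (SE 0.15, adjusted p = 0.322 in edgeR), from 102 ± 4.64 to 86.3 ± 12.7 CPM (SD, n = 3 each).

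Sod1, cytosolic copper-zinc superoxide dismutase, had the smallest spread in ByJcl, at 200 to 205 CPM at baseline and 210 to 215 CPM on Day 5. The groups did not overlap, but the log2 fold change was 0.07 (SE 0.11, adjusted p = 0.729). In AJcl the baseline libraries ran from 176 to 243 CPM and the 2 tested Day 5 libraries were at 183 and 187 CPM, whereas AJcl Day 5 replicate 1 was at 384 CPM. With that library in the fit, the log2 change in AJcl turned from -0.20 to 0.21 and the Day 5 difference of ByJcl from AJcl from 0.20 to -0.26, with no call either way. Sod1 overlaps Scaf4, and Gpx3 overlaps Tnip1, on the opposite strand, and although the libraries were strand-specific, the strand setting of the counting is not given in the sources used here.

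Gpx3 encodes the secreted, selenium-containing plasma glutathione peroxidase, of which the kidney tubule is the main source. It was the most variable of the 10 genes. It was at 5026, 2069 and 7346 CPM in AJcl at baseline, at 1082, 3383 and 3088 CPM in ByJcl at baseline, at 4619 and 3793 CPM in AJcl at Day 5 and at 920, 2714 and 3750 CPM in ByJcl at Day 5. AJcl Day 5 replicate 1 was at 12556 CPM, and the highest library was 13.6 times the lowest.

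The order of the 3 libraries by Gpx3 within each group was their order by summed proximal tubule markers in 4 of 4 groups. That sum spanned 14.2 times over the same 12 libraries. The same held in 4 of 4 groups for Cat, catalase, the peroxisomal enzyme that breaks down hydrogen peroxide, and in 3 of 4 for Sod2, but in none for Txnrd1, Nqo1 or Sod1, in 1 for Srxn1 and Hmox1 and in 2 for Gclc and Gclm. The part of tubule RNA in the levels of Gpx3, Cat and Sod2 was not tested.

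**Figure D3:**
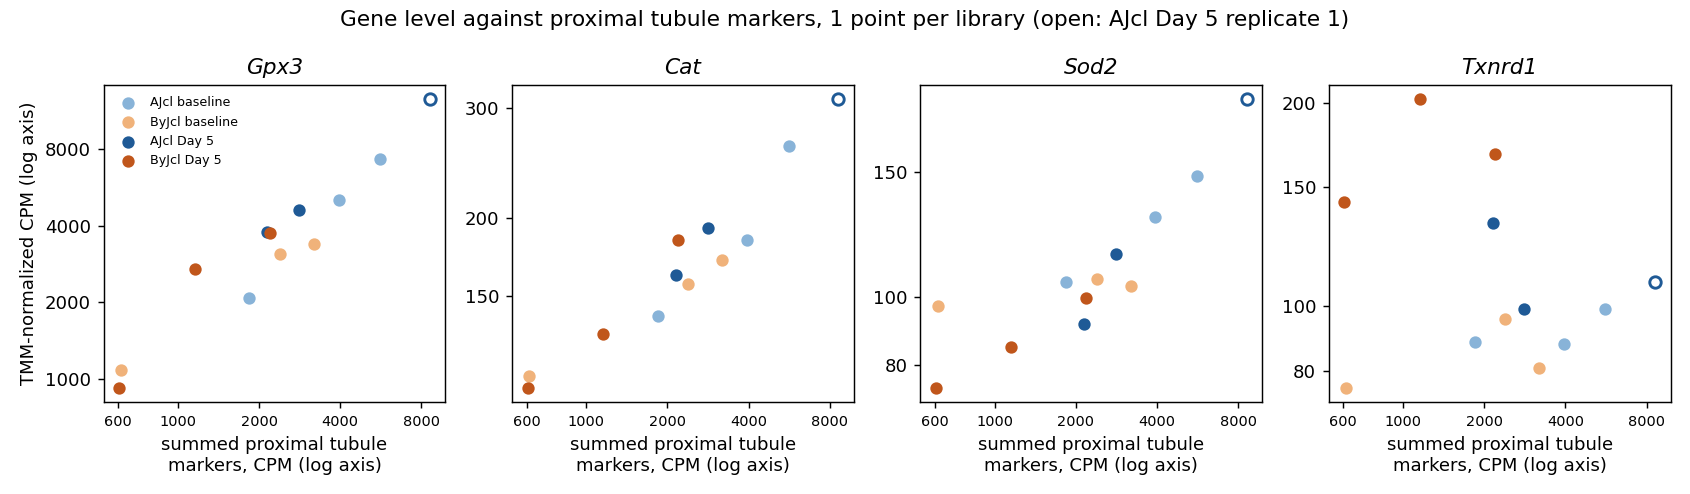
Level of Gpx3, Cat, Sod2 and Txnrd1 (CPM, log axis) against the summed level of 10 proximal tubule markers (CPM, log axis), 1 point per library. Gpx3 and Cat climb from their lowest library, ByJcl Day 5 replicate 1, to their highest, AJcl Day 5 replicate 1, along with the markers, while the highest Txnrd1 values belong to ByJcl Day 5 libraries with marker sums of 605 to 2188 CPM.

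Cat was at 184, 139 and 261 CPM in AJcl and at 112, 171 and 157 CPM in ByJcl at baseline. On Day 5 it was at 193 and 162 CPM in AJcl and at 107, 130 and 185 CPM in ByJcl. The ranges overlapped in every comparison, and the log2 fold changes after ADR were -0.14 (SE 0.28) in AJcl and -0.06 (SE 0.25) in ByJcl.

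Between the substrains at baseline the point estimate lay below 0, lower in ByJcl, for all 10 genes, with a median log2 difference of -0.20 beside 0.01 over all tested genes. It also lay below 0 for 21 of 22 other glutathione, peroxidase and thioredoxin enzymes, 22 of 28 other NRF2 targets and 8 of 8 selenoprotein synthesis genes. Of 15 haem and iron genes 9 lay below 0, whereas 8 of 10 genes of NRF2 and its regulators and 7 of 9 oxidant sources lay above 0. The estimates of Hmox1 and Srxn1 turned above 0 without AJcl baseline replicate 3 (0.35 and 0.14), and that of Srxn1 also without ByJcl baseline replicate 1 (0.039). None of the 10 was called in edgeR or DESeq2, against a background of 0.159% in edgeR, and the libraries of the substrains overlapped for all 10, against 14.5% of tested genes without overlap. The largest differences were those of Gpx3 (-0.93, SE 0.56, adjusted p = 0.641), Nqo1 and Cat (-0.41, SE 0.25, adjusted p = 0.648) in edgeR. The 10 proximal tubule markers also all lay below 0, with a median of -0.93, and the 8 distal nephron markers likewise, with a median of -1.27. Their part in the lower estimates was not tested.

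At Day 5 none of the 10 was called between the substrains in edgeR or DESeq2, against a background of 0.165% in edgeR. In edgeR over the 11 libraries Txnrd1 alone had an unadjusted p under 0.05, against 14% of all tested genes. Libraries did not overlap for 4 of the 10, against 33.4% of tested genes. Of these, Hmox1, Txnrd1 and Sod1 were higher in ByJcl and Gpx3 was lower, and Sod1 no longer separated when AJcl Day 5 replicate 1 was counted. The Gpx3 difference was -0.77 with an SE of 0.62 (adjusted p = 0.588 in edgeR), while the proximal tubule markers had a median of -0.92.

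After ADR in ByJcl, libraries did not overlap for 4 of the 10 genes, all higher on Day 5, namely Nqo1, Txnrd1, Srxn1 and Sod1, against 17.3% of tested genes higher without overlap and 33.4% without overlap in either direction. In AJcl this held for Txnrd1 alone, against 13.6% and 25.1%. The difference between the ADR responses lay above 0 for 9 of the 10 genes, beside 50.3% of all tested genes. The median was 0.22 on the log2 scale, beside 0.003 over all tested genes. The differences of Gpx3, Sod1, Sod2, Cat and Gclm lay below 0 with all 12 libraries in the fit. The difference between the responses was called for none of the 10 in edgeR or DESeq2. In both 1 gene, Txnrd1, had an unadjusted p under 0.05, against 8.02% of all tested genes in edgeR. In edgeR the difference also lay above 0 for 19 of 22 other glutathione, peroxidase and thioredoxin enzymes and 19 of 28 other NRF2 targets. It lay above 0 for 7 of 8 p53 targets (median 0.53) and below 0 for 9 of 10 podocyte markers (median -0.87).

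NRF2 itself and its inhibitor did not pass the test at the RNA level. Nfe2l2 means lay between 116 and 128 CPM and Keap1 means between 68.6 and 82.6 CPM over the 4 groups, and neither gene was called in any comparison. The log2 fold changes after ADR were -0.03 (SE 0.11) in AJcl and 0.05 (SE 0.10) in ByJcl for Nfe2l2, and 0.10 (SE 0.12) and 0.11 (SE 0.11) for Keap1. NRF2 is controlled mainly through the stability of its protein, which RNA-seq does not measure.

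Of the 10 genes in the list of NRF2 and its regulators, 2 rose in ByJcl and 1 in AJcl after ADR in edgeR, beside backgrounds of 5.75% and 0.306% of tested genes called higher. DESeq2 called 3 and 1, against its own 15.8% and 1.77% of tested genes called in either direction. Maff encodes a small MAF protein, a class of partner of NRF2 that can also pair with BACH1, a repressor of NRF2 targets. It was at 4.12, 7.18 and 12.0 CPM in ByJcl at baseline and at 50.3, 90.1 and 70.8 CPM on Day 5, a 9.06-fold rise (log2 fold change 3.18, SE 0.37, adjusted p = 0.00142 in edgeR). In AJcl it was at 4.34, 5.01 and 4.68 CPM at baseline and at 20.5 and 38.1 CPM on Day 5, a 6.26-fold rise (2.65, SE 0.39, adjusted p = 0.0185 in edgeR), and replicate 1 was at 27.04 CPM. The AJcl call was lost without any 1 of the AJcl baseline libraries (adjusted p 0.143, 0.0985 and 0.0847 for replicates 1 to 3) and without AJcl Day 5 replicate 3 (0.293), with a lowest log2 fold change of 2.13.

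Sqstm1 encodes p62, an autophagy receptor that sequesters KEAP1. It rose 1.42-fold in ByJcl, from 472, 499 and 480 CPM to 593, 767 and 699 CPM (log2 fold change 0.51, SE 0.11, adjusted p = 0.0176 in edgeR). In AJcl it was at 427, 424 and 469 CPM at baseline and at 481 and 516 CPM on Day 5, with replicate 1 at 560.5 CPM. The AJcl libraries did not overlap, but edgeR did not call the change (0.18, SE 0.12, adjusted p = 0.723). The ByJcl call was lost without ByJcl baseline replicate 1 (adjusted p = 0.0667), replicate 2 (0.0577) or replicate 3 (0.0574), and without ByJcl Day 5 replicate 2 (0.0750).

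Of 28 tested genes in a list of other NRF2 targets, 4 rose and 1 fell in ByJcl after ADR, beside backgrounds of 5.75% and 4.83%, and none was called in AJcl in edgeR, where 5 had an unadjusted p under 0.05, against 9.8% of all tested genes. DESeq2 called 2 in AJcl, against 1.77%. The median log2 fold change was 0.14 in ByJcl and -0.12 in AJcl. The genes that rose were Sesn2, Mgst1, Txn1 and G6pdx, and Gsta4 fell.

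Sesn2 encodes sestrin 2, which is also a known p53 target, and its ByJcl means were 13.9 ± 4.82 and 49.8 ± 2.56 CPM (SD, n = 3 each), a 3.57-fold rise (adjusted p = 0.00572 in edgeR). In AJcl it was at 10.5, 12.8 and 22.01 CPM at baseline and at 31.2 and 48.3 CPM on Day 5, with replicate 1 at 36.7 CPM. The AJcl libraries did not overlap either, but edgeR did not call the change (log2 fold change 1.40, SE 0.33, adjusted p = 0.144), and the difference between the responses was 0.44 (SE 0.46). Gsta4, a glutathione transferase for lipid aldehydes, fell 1.89-fold, from 177 ± 30.7 to 93.5 ± 13.3 CPM (SD, n = 3 each; adjusted p = 0.0124). Txn1, thioredoxin and the substrate of the Txnrd1 enzyme, rose 1.46-fold (log2 fold change 0.55, SE 0.16, adjusted p = 0.0485).

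Mgst1, a microsomal glutathione transferase, rose 2.39-fold (1.26, SE 0.35, adjusted p = 0.0423), from 4.18 ± 0.903 to 10.0 ± 3.13 CPM (SD, n = 3 each). In AJcl Mgst1 was at 11.9, 4.44 and 9.61 CPM at baseline and at 11.7 CPM in both tested Day 5 libraries, so 2 of 3 ByJcl Day 5 libraries, at 12.4 and 11.2 CPM, lay near the highest untreated AJcl library. G6pdx, the glucose-6-phosphate dehydrogenase that supplies NADPH, rose 1.29-fold (0.36, SE 0.10, adjusted p = 0.0366) and falls outside the rule for named genes, having been added after its values were seen. Sesn2 was called in ByJcl without each of the 11 libraries in turn, and Gsta4 was lost without ByJcl Day 5 replicate 2 alone (adjusted p = 0.0622).

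In AJcl edgeR gave log2 fold changes of -0.17 for Txn1 (SE 0.18), 0.43 for Mgst1 (SE 0.38), 0.12 for G6pdx (SE 0.11) and -0.55 for Gsta4 (SE 0.21, adjusted p = 0.393).

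The other 3 calls rested on many libraries. The call of G6pdx was lost without any 1 of the ByJcl baseline libraries or without ByJcl Day 5 replicate 1 or 2, with adjusted p from 0.0764 to 0.116. That of Txn1 was lost without these libraries and also without AJcl baseline replicate 3 or either AJcl Day 5 library, with adjusted p from 0.0569 to 0.178. That of Mgst1 was lost without any 1 of the ByJcl baseline libraries, ByJcl Day 5 replicate 2 or 3, AJcl baseline replicate 3 or either AJcl Day 5 library, with adjusted p from 0.0531 to 0.153.

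**Figure D4:**
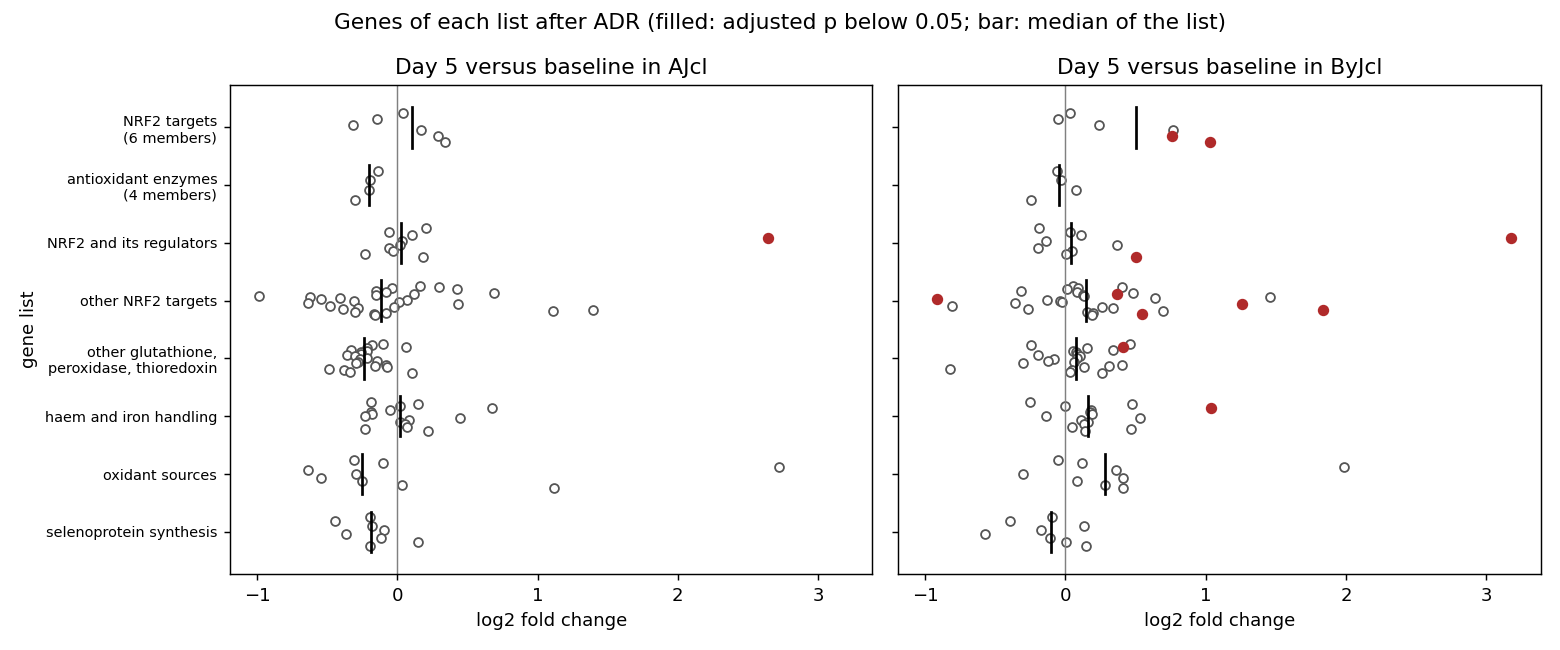
log2 fold change after ADR of each tested gene of the 2 groups of members and of 6 other lists, in AJcl and in ByJcl. In ByJcl the filled points, adjusted p under 0.05, are 2 of 6 NRF2 target members, 2 of 10 regulators, 5 of 28 other NRF2 targets, 1 of 22 other thiol and peroxidase enzymes and 1 of 15 haem and iron genes, and in AJcl only Maff at 2.65.

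Of 22 other glutathione, peroxidase and thioredoxin enzymes, 1 rose in ByJcl, Glrx3, a monothiol glutaredoxin that carries iron-sulfur clusters (1.33-fold, log2 fold change 0.41, SE 0.10, adjusted p = 0.0310 in edgeR), a share no higher than the background of 5.75%. DESeq2 and limma-voom each called 2 of the 22, 1 higher and 1 lower, against 15.8% of tested genes in DESeq2 and 1817 of 17002 in limma-voom. In AJcl the log2 fold change of Glrx3 was 0.06 (SE 0.12). Its call was lost without ByJcl baseline replicate 2 (adjusted p = 0.119) or replicate 3 (0.0931) and without ByJcl Day 5 replicate 1 (0.0724) or replicate 2 (0.106). In AJcl 20 of the 22 lay below 0, with a median of -0.24, and none was called in edgeR or DESeq2. In edgeR 2 of them had an unadjusted p under 0.05, against 9.8% of all tested genes.

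Of 15 haem and iron genes, 1 rose in ByJcl, Cp, beside the background of 5.75% of tested genes called higher. Cp encodes ceruloplasmin, the copper oxidase that loads iron onto transferrin, and its level went from 126, 122 and 140 CPM to 205, 317 and 274 CPM, a 2.05-fold rise (log2 fold change 1.04, SE 0.18, adjusted p = 0.00614 in edgeR). In AJcl Cp was at 95.7, 93.0 and 73.0 CPM at baseline and at 116 and 163 CPM on Day 5, above the baseline libraries, while replicate 1 was at 78.9 CPM, within their range (log2 fold change 0.68, SE 0.20, adjusted p = 0.244 in edgeR), with a difference between the responses, ByJcl minus AJcl, of 0.36 (SE 0.27, adjusted p = 0.733). In AJcl none of the 15 was called in edgeR or DESeq2, and 2 had an unadjusted p under 0.05 in edgeR, against 9.8% of all tested genes.

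None of 9 tested genes that produce oxidants, such as the NADPH oxidase subunits, was called by edgeR after ADR in either substrain. Xdh, the xanthine dehydrogenase that can form superoxide, came nearest in AJcl (log2 fold change 1.12, adjusted p = 0.0544) and was named after its values were seen, as were the genes that follow. It had an unadjusted p under 0.05 in both substrains, as did the peroxide-producing oxidase Duox2. DESeq2 called 1 gene of the list in AJcl and none in ByJcl, against 1.77% and 15.8% of tested genes. None of 8 genes of selenoprotein synthesis and transport, on which Txnrd1 and Gpx3 depend, was called by edgeR. Selenop, the selenium carrier of plasma, came nearest in ByJcl at -0.57 (adjusted p = 0.0592). DESeq2 called 1 gene of this list in ByJcl and none in AJcl, against 15.8% and 1.77% of tested genes. None of the 6 lists had a call in edgeR between the substrains at baseline or for the difference between the ADR responses, nor in DESeq2. At Day 5 between the substrains edgeR called none and DESeq2 called 3 of 10 regulators, 1 of 15 haem and iron genes and 1 of 28 other NRF2 targets, against its background of 3.26%.

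The genes whose levels over the 11 libraries were most like those of Txnrd1 were Fos, Ier3 and Rhobtb3, out of 13640 genes with a mean of at least 1 CPM. Likeness is the root mean square difference between centred log2(CPM + 1) values, which was 0.11, 0.13 and 0.13, against an SD of 0.46 for Txnrd1 itself. Fos, a subunit of AP-1, was at 354, 429 and 511 CPM in ByJcl at baseline and at 729, 952 and 788 CPM on Day 5. For Srxn1 the nearest genes were Uhrf1bp1l, Cdt1 and Ddr1, with differences of 0.10, 0.12 and 0.12 against an SD of 0.38. Ddr1, a collagen receptor, was at 79.1, 83.2 and 98.0 CPM in ByJcl at baseline and at 113, 140 and 130 CPM on Day 5. These likenesses are descriptions over libraries that share the same groups.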

How the data were processed

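After trimming (Trimmomatic) and alignment to GRCm39 (STAR), the authors counted reads per gene with featureCounts and deposited raw counts per gene symbol, in 1 table for baseline and 1 for Day 5. Libraries were strand-specific per the labels. The annotation and strand setting of the counting are not given in the sources used here. In each library most counts between 1 and 49, 77.1% to 82.9%, were even. Both mates of a pair may have been counted, in which case the printed counts and depths are about 2 times the fragments; this was not settled, and halving the counts was tried. Depth was 42198416 to 54687045 counts.

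The 17002 genes kept by edgeR's filterByExpr were scaled by TMM and fitted in edgeR 4.0.16 (R 4.3.3) by the quasi-likelihood model over 11 libraries, a coefficient for each group, 7 degrees of freedom left for the residuals, 5 contrasts and Benjamini-Hochberg adjustment. The steps were tested on simulated data. The labels name separate samples but no animal for each, so p-values measure the spread between these libraries. Alternatives were all 12 libraries, only the groups compared, RLE and upper quartile scaling, 2 filters, DESeq2 1.42.0, limma-voom 3.58.1, a replicate block, halved counts and each library left out.

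Genes, lists and markers were chosen with earlier results of these data known. Named genes were the 10 members, up to 3 called genes per direction, list and contrast, Nfe2l2, Keap1, and the 3 genes most like each called member. Other cell markers were used as lists, by their calls, medians or summed levels, with some single genes named. The lists were for proximal tubule (10 genes), distal nephron (8), podocyte (10), endothelium (8), mesangium (7 of 8 tested), myeloid cells (10) and erythroid cells (2 of 7 tested). Coordinates and sequences are from GENCODE vM39 on GRCm39. Figures used matplotlib 3.10.9.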

Additional observations from a re-analysis of the deposited data

Results flagged for a closer look

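The library left out of the tests, AJcl Day 5 replicate 1, lay above all 6 baseline libraries in 8 of the 10 genes, against 32.8% of all tested genes. It held Gpx3 at 12556 CPM against a highest baseline library of 7346 CPM, Sod1 at 384 against 243 CPM, Sod2 at 190 against 148 CPM and Cat at 310 against 261 CPM. It held Gclm at 67.8 against 62.5 CPM, Nqo1 at 7.71 against 6.52 CPM, Txnrd1 at 108 against 98.8 CPM and Srxn1 at 43.4 against 32.9 CPM. Its summed proximal tubule markers, 8600 CPM, were 3.93 times the median of the other 11 libraries, its Gpx3 3.71 times, its Cat 1.91 times and its Txnrd1 1.10 times. The part of tubule RNA in these values was not tested.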

How the results depend on the processing

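No member that passed the test changed direction under any alternative. The members called for Day 5 against baseline in ByJcl numbered 1 to 2 with each library left out, Txnrd1 being called each time. They numbered 3 in DESeq2, with Nqo1, where DESeq2 called 15.8% of all tested genes. Between the substrains at Day 5 they numbered 0 with each library left out alone and 1, Txnrd1, without AJcl Day 5 replicate 3 but with replicate 1, and in the other 3 comparisons none was called under any alternative. Calls over all genes ranged from 12 to 101 for the substrains at baseline, from 6 to 795 at Day 5, from 12 to 301 for ADR in AJcl, from 684 to 2694 for ADR in ByJcl and from 0 to 23 for the difference between the responses. DESeq2 gave 101, 555, 301, 2694 and 23, and the 795 arose without AJcl Day 5 replicate 3 but with replicate 1.

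With a block for the replicate number, members called were again 2 for ADR in ByJcl and 0 elsewhere, and Mgst1 (adjusted p = 0.0605) and G6pdx (0.0572) were lost. With all 12 libraries Txn1 (adjusted p = 0.289), Mgst1 (0.0907), Glrx3 (0.194) and G6pdx (0.0811) were lost after ADR in ByJcl, in limma-voom Mgst1 was lost in ByJcl (0.0702) and Maff in AJcl (0.0656), and with no filter G6pdx was lost in ByJcl (0.0566). Correlations of the deviations of same-numbered libraries ran from -0.39 to 0.53 over 15 pairs. Libraries with different numbers were not compared in this way, so whether the numbers pair the libraries was not settled.

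Uncalled values changed sign as follows, and the cause was not tested. With all 12 libraries the log2 change after ADR in AJcl became 0.51 for Gpx3, 0.21 for Sod1, 0.028 for Sod2, 0.16 for Cat, 0.030 for Gclm, -0.0029 for Gclc and 0.064 for Nfe2l2. The Day 5 substrain difference of Sod1 became -0.26. The difference between the responses became -0.56 for Gpx3, -0.17 for Sod1, -0.30 for Sod2, -0.25 for Cat, -0.11 for Gclm, 0.0049 for Gclc and -0.044 for Nfe2l2. With the block, Gclc became -0.056 after ADR in AJcl and 0.096 for the difference between the responses, and Keap1 became -0.0070 for the latter. For that difference Gclc became 0.016 with RLE scaling and in DESeq2 and 0.022 with the filter of 10 counts in 3 libraries, and Gpx3 became -0.068 in limma-voom.

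With each of the 11 libraries left out alone, values that changed sign ranged as follows. After ADR in AJcl they were -0.33 to 0.14 for Cat, -0.092 to 0.22 for Gclc, -0.31 to 0.017 for Gclm, -0.56 to 0.25 for Gpx3, -0.59 to 0.13 for Hmox1, -0.11 to 0.026 for Nfe2l2 and -0.064 to 0.33 for Nqo1. After ADR in ByJcl they were -0.29 to 0.10 for Cat, -0.10 to 0.12 for Gclc, -0.20 to 0.087 for Gclm, -0.46 to 0.36 for Gpx3 and -0.012 to 0.087 for Nfe2l2. Between the substrains they were -0.35 to 0.35 for Hmox1, -0.026 to 0.13 for Nfe2l2 and -0.16 to 0.14 for Srxn1 at baseline, and -0.29 to 0.015 for Gclm and -0.24 to 0.16 for Nqo1 at Day 5. For the difference between the responses they were -0.19 to 0.27 for Cat, -0.18 to 0.13 for Gclc, -0.063 to 0.26 for Gclm, -0.27 to 0.55 for Gpx3, -0.086 to 0.12 for Keap1 and -0.078 to 0.27 for Sod2.

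In an alternative chosen after seeing the data, AJcl Day 5 replicate 1 was taken in for replicate 2 or 3. The change after ADR in AJcl was then 0.24 and 0.34 for Cat, 0.13 and 0.11 for Gclm, 0.72 and 0.80 for Gpx3, 0.086 and 0.14 for Nfe2l2, 0.39 in both for Sod1 and 0.11 and 0.24 for Sod2. The Day 5 substrain difference was -0.44 and -0.41 for Sod1 and -0.015 and -0.036 for Nfe2l2. The difference between the responses was -0.32 and -0.39 for Cat, -0.21 and -0.15 for Gclm, -0.78 and -0.83 for Gpx3, -0.34 and -0.31 for Sod1, -0.37 and -0.47 for Sod2 and -0.066 and -0.080 for Nfe2l2. Nqo1 was at 0.38 and 0.22 after ADR in AJcl and at -0.32 and -0.12 at Day 5, where Gclm was at -0.44 and -0.40. No library left out alone turned the sign of Sod1 after ADR in AJcl (-0.32 to -0.12), at Day 5 (0.20 to 0.21) or for the difference between the responses (0.21 to 0.40), of Sod2 after ADR in AJcl (-0.51 to -0.15), or of Nfe2l2 at Day 5 (0.094 to 0.19) or for that difference (0.016 to 0.17). Of 1150 values of members under alternatives, 1057 kept direction and call, and 87 changed sign, none of them called.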

Other observations

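Markers of other cells were recorded for the same libraries. After ADR in ByJcl, 2 of 8 endothelial markers fell (Ehd3 and Flt1), 2 of 7 mesangial markers rose (Serpine2 and Tagln, a contractile-cell gene) and 1 of 10 myeloid markers rose (Cd68), with median log2 fold changes of -0.22, 0.20 and -0.48, beside 5.75% of all tested genes called higher and 4.83% called lower, and no tested marker of the distal nephron or the proximal tubule was called in edgeR. DESeq2 called 4 endothelial markers, 1 of them higher, 2 mesangial markers, both higher, and 2 myeloid markers, 1 of them higher, against 15.8% of all tested genes called by DESeq2 in either direction. In AJcl none of these 5 lists had a call in edgeR or DESeq2. Between the substrains the only call among them in edgeR was Tagln, higher in ByJcl at Day 5, where DESeq2 called 2 of 7 mesangial markers and 1 of 10 myeloid markers higher and 1 of 8 distal nephron markers lower, against 3.26% of all tested genes. These genes were named after their values were seen. The myeloid list had a median log2 difference of ByJcl from AJcl of 0.67 at baseline and 0.63 at Day 5. In each comparison 4 of its 10 genes had an unadjusted p under 0.05 in edgeR, against 8.34% and 14% of all tested genes. Of the erythroid list Alas2 fell in both substrains in edgeR, against 10.6% of tested genes called in either direction in ByJcl and 0.312% in AJcl. DESeq2 called 2 of the 2 tested genes lower in ByJcl and 1 in AJcl. Hbb-bs was at 0 in every library. The summed level of the list was 7.09 to 12.6 CPM in ByJcl at baseline and 0.797 to 2.25 CPM on Day 5. In AJcl it was 9.36 to 14.1 CPM at baseline and 3.24 and 3.93 CPM on Day 5, with replicate 1 at 8.12 CPM.

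Of the 10 podocyte markers the 1 that rose in ByJcl was Cdkn1c, a cell cycle inhibitor. Between the substrains at Day 5, 9 of the 10 lay below 0, lower in ByJcl, with a median of -0.66. There edgeR called 0, with 6 at an unadjusted p under 0.05, against 14% of all tested genes, and DESeq2 called 2 lower, against 3.26%. At baseline all 10 lay above 0, with a median of 0.22, and none was called. The 8 p53 targets all lay above 0 at Day 5, with a median of 0.55. The podocyte markers summed to 19654 to 22665 CPM in ByJcl at baseline and to 9908 to 13862 CPM on Day 5. Txnrd1 and Srxn1 rose in the same libraries. The part of a changed cell makeup in these rises was not tested.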
